A study of Rattus norvegicus with 4 samples.

Results

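Mammary glands of parous Lewis rats that had received N-methyl-N-nitrosourea (MNU), an alkylating carcinogen, were compared with glands of untreated parous rats. Of 20500 features on the array, 19483 had a value on both parous arrays, and these are the measurements described here. Of them, those that passed the intensity filter and carried 1 gene symbol gave 5792 genes, 1 value per gene from its brightest feature. The full series holds 4 arrays, each for 5 rats: parous, age-matched virgin, parous with MNU and virgin with MNU. In both parous groups parturition was at 87 days of age, and litters were taken away at 108 days after 21 days of nursing. Untreated parous rats were killed at 136 days, 28 days after litter removal. Treated parous rats received a single intraperitoneal dose of 50 mg/kg MNU at 136 days and were killed 3 weeks later, at 157 days and 49 days after litter removal. Virgin rats had the same ages and the same treatment. MNU, the additional 3 weeks of age and the additional time since lactation cannot be told apart within the parous pair. Whether the RNA of the 5 rats was pooled is not given in the sources used here. With 1 array on each side the pair has no replicate, so its differences carry no error and no p-value.

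The mammary gland of a rat that has nursed and then regressed is a fat pad crossed by ducts and small alveoli, and total RNA of the whole gland mixes adipocytes, luminal and myoepithelial cells, fibroblasts, vessels and immune cells. Fat cells and secretory epithelium both make fatty acids: cytosolic citrate is cleaved to acetyl-CoA, which is carboxylated and lengthened to palmitate, then elongated, desaturated and esterified. MNU methylates DNA. Its O6-methylguanine lesions are repaired by the methyltransferase Mgmt or recognised by mismatch repair, and DNA damage activates targets of p53. An earlier full pregnancy lowers the tumour response of rats to MNU. Because the tissue was measured in bulk, fewer cells of a type and less RNA per cell cannot be told apart.

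The deposited intensities of the MNU array were mostly lower. Its median was 179 units against 226 units on the untreated parous array, its highest value was 12400 against 29100, and it had 795 blanks against 421. As deposited, the median difference over all genes was -0.40 on the log2 scale, so values below are given after quantile normalization of the arrays, which brought that median to 0.00, unless called deposited. Normalized values under 177.8 units, the 40th percentile over all arrays, were set to that floor. A gene at the floor has only an upper bound. Differences below are log2 differences of normalized intensity, parous with MNU minus parous, unless stated otherwise. The robust SD of all 5792 differences (their scaled median absolute deviation) was 0.195. Markers of the labelled tissue were present on both arrays: Epcam, an adhesion protein of epithelium, read 6783 and 6860 normalized units on the untreated and the MNU array, and Pparg, the transcription factor of fat cells, read 1658 and 2112 units.

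Few genes differed in size between parous glands with and without MNU. A difference of at least 1.5-fold was found for 59 genes, 1.02% of those measured, 16 of them higher (0.276%) and 43 lower (0.742%) with MNU. Of these, 3 higher genes and 1 lower gene were at the floor on 1 parous array. At least 2-fold differences were found for 5 genes (0.0863%), 2 higher (0.0345%) and 3 lower (0.0518%). In virgin glands the same rules gave 134 genes at 1.5-fold (2.3%), 79 higher (1.36%) and 55 lower (0.945%), and 23 at 2-fold (0.395%), 17 higher (0.292%) and 6 lower (0.103%). The larger number of lower genes in the parous pair depended on the scaling: 6 were higher and 90 lower with centring of the arrays on their medians, 17 and 38 with a lowess curve, 52 and 29 with quantile normalization over all values, 83 and 111 after subtraction of a background, and 1 and 1139 as deposited. The 2-fold split was 1 and 4 with centring, 3 and 3 over all values and 1 and 43 as deposited. Among 3777 kept features without a single gene symbol the split was 23 higher and 12 lower, against 19 and 47 among the 6720 with one.

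**Figure D1:**
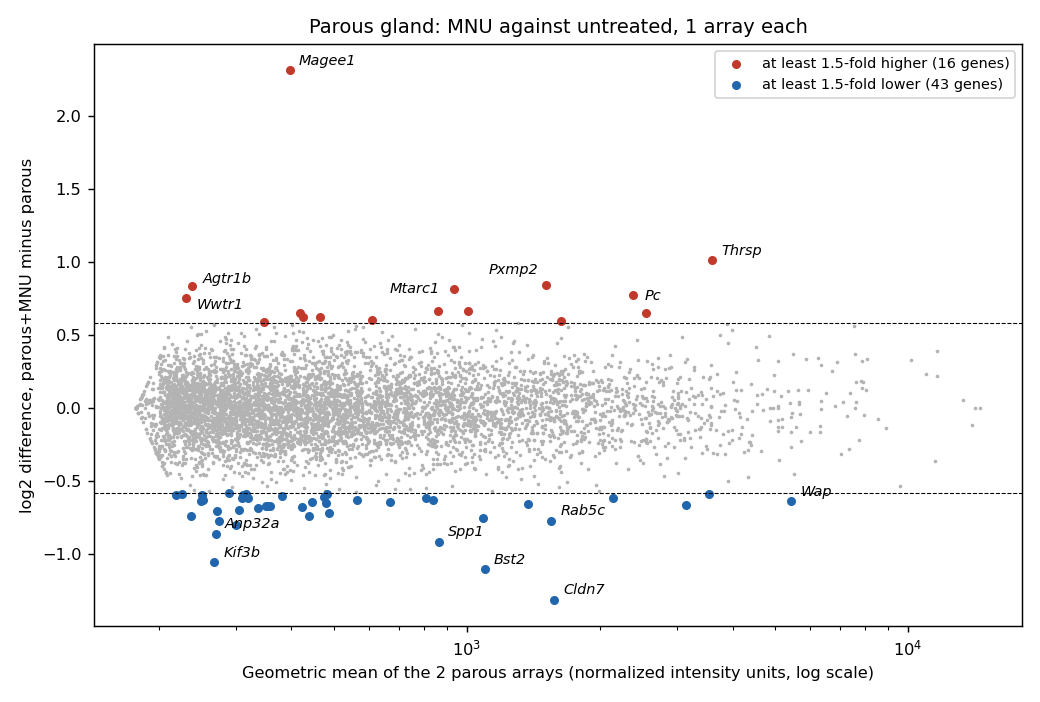
Each dot is 1 gene of the parous pair, with the geometric mean of both parous arrays in normalized units on a log axis and the log2 difference, parous with MNU minus parous, on the y axis; dashed lines mark 1.5-fold. The 16 higher genes and the 43 lower genes lie over the whole range of intensity, with Magee1 at 2.31, Thrsp at 1.01 and Cldn7 at -1.31 farthest out.

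Genes of fatty acid synthesis had the highest median of the 35 gene lists in the parous gland with MNU. All lists and their members were chosen with earlier results of these data known, so this rank is a description. Of 18 fatty acid synthesis genes listed, 16 have a feature and 9 were measured on both parous arrays. The difference lay above 0 for 7 of these and below 0 for 2, and 2 were at least 1.5-fold higher and 0 lower. Their median was 0.49, against 0.00 for all genes, of which 49.3% lay above 0 and 50.4% below. As deposited it was 0.00 and that of all genes -0.40, and relative to all genes it lay between 0.22 and 0.51 in the 15 other settings tried, the lowest value without a filter on dim genes.

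Thrsp encodes the thyroid hormone responsive protein Spot 14, a nuclear factor that raises transcription of lipogenic enzymes. Thrsp read 2533 units in untreated parous glands, 5105 in parous glands with MNU, 1976 in virgin and 7179 in virgin glands with MNU. Both MNU arrays thus lay above both untreated arrays. The parous difference was 1.01, 2.02-fold, and it was visible in the deposited intensities of 2760 and 3890 units as well. Pc, pyruvate carboxylase, makes the oxaloacetate that carries acetyl units out of mitochondria as citrate. Pc read 1822 units without and 3117 units with MNU, a difference of 0.77, and 1456 and 4468 units in virgin glands.

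Elovl6, which elongates palmitate, read 219 and 326 units in the parous pair, a difference of 0.57 that fell just short of 1.5-fold; Cat, at 0.58, was the other gene nearest below that limit, while Car5b at 0.59 and Oxt at 0.60 lay just inside it. In virgin glands Elovl6 read 185 and 684 units. Me1, malic enzyme, a source of NADPH for lipid synthesis, differed by 0.50 in the parous pair and by 0.34 in its other feature. Acss2, which activates acetate, differed by 0.49 and Mlxipl, the carbohydrate response factor ChREBP, by 0.26. Acly, the citrate lyase, stood at 0.22 in parous and 1.16 in virgin glands. Scd2, a desaturase, stood at -0.07 and 0.84, and Insig2, which retains the sterol sensor in the endoplasmic reticulum, at -0.21 and -0.08. Fasn, the fatty acid synthase, read 6538 units in untreated parous and 6368 in untreated virgin glands and was blank on both MNU arrays, so no difference could be formed.

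Further genes among the highest of the parous pair encode enzymes and carriers of peroxisomes, mitochondria and cytosol; they were picked from the differences and form no list. Pxmp2, a channel protein of the peroxisomal membrane, read 1128 units without and 2024 with MNU, a difference of 0.84. Mtarc1, an amidoxime reductase of the outer mitochondrial membrane, read 706 and 1242 units, a difference of 0.81. Slc25a10, the mitochondrial dicarboxylate carrier, differed by 0.65. Car5b, a mitochondrial carbonic anhydrase, differed by 0.59 and by 0.36 in its other feature. Gpd1, glycerol-3-phosphate dehydrogenase, which makes the backbone of triglycerides, differed by 0.57, and its other feature, below the filter, by 0.17. Cat, the peroxisomal catalase, differed by 0.58, and Decr1, a reductase of mitochondrial fatty acid oxidation, by 0.53 and by 0.29 in its other feature. In virgin glands the same genes differed by 0.96 for Pxmp2, 0.95 for Mtarc1, 0.69 for Slc25a10, 1.07 for Car5b, 1.26 for Gpd1, 0.45 for Cat and 0.27 for Decr1.

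**Figure D2:**
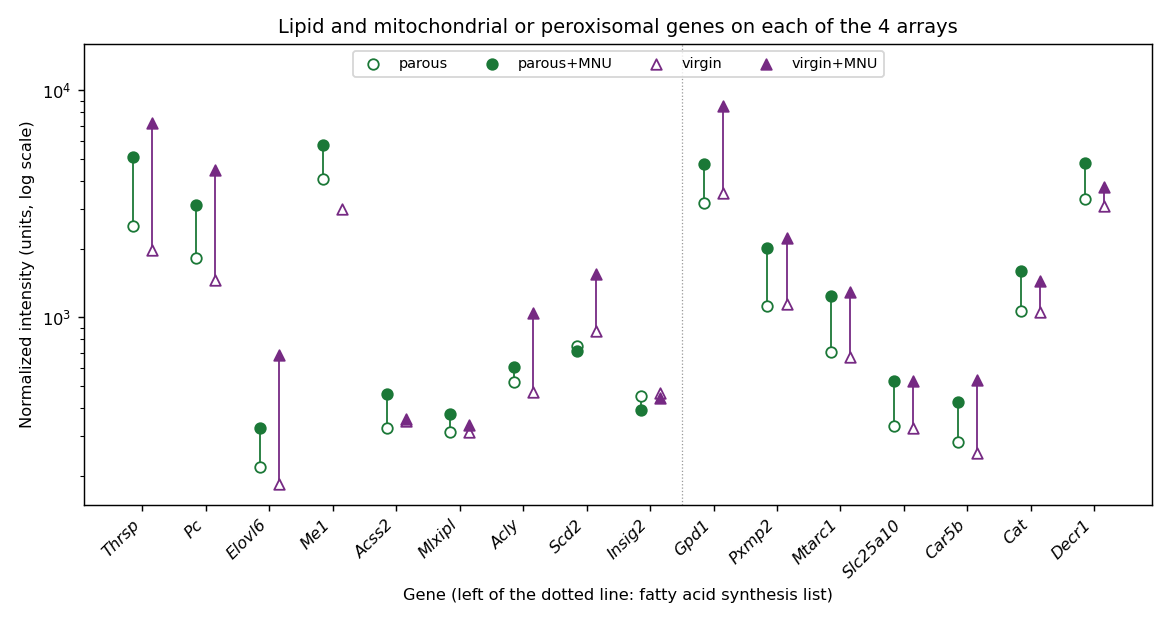
Normalized intensity in units on a log axis for 16 genes, with an open and a filled symbol for the untreated and the MNU array, circles for parous and triangles for virgin glands, and a line joining the arrays of a pair. Thrsp, Pc and Elovl6 lie higher on the MNU array in both parity states, with a shorter step in parous glands (1.01, 0.77 and 0.57 on the log2 scale), while Acly and Scd2 at 0.22 and -0.07 lie close together there.

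A test was possible only for the mean of the parous and the virgin difference, fitted with limma over all 4 arrays. In both pairs the MNU rats were killed at 157 days and the untreated rats at 136 days. The fitted MNU difference therefore cannot be told apart from 3 weeks of age. Parity and MNU were additive terms, and the disagreement of both pairs left 1 residual degree of freedom per gene. In limma it was combined with a variance shared over all genes that counted as 11.4 degrees of freedom. The SE and p therefore rest mostly on the shared variance and less on how far both pairs of a gene agree. Each gene named here was higher with MNU in both pairs. The mean difference was 1.44 ± 0.16 for Thrsp (SE, 2 arrays per MNU state, limma adjusted p = 0.00591). It was 1.20 ± 0.16 for Pc (limma adjusted p = 0.00979), 0.90 ± 0.11 for Pxmp2 and 0.88 ± 0.11 for Mtarc1 (limma adjusted p = 0.00631 for both). Gpd1, Car5b, Slc25a10, Dapl1 and Elovl6 also passed, with adjusted p from 0.0224 to 0.0397 in limma. In all, 24 of 5587 genes passed limma (0.43%), 10 higher (0.179%) and 14 lower (0.251%). Among them were 3 of 8 fatty acid synthesis genes. That list was chosen with earlier results of these data known, so the count is no test of the list. The calls were not stable: 74 genes passed with median centring (16 higher, 58 lower), 114 with quantile normalization over all values (85 higher, 29 lower), 70 as deposited (4 higher, 66 lower), 16 with lowess (9 higher, 7 lower) and 0 without a filter, where 830 had an unadjusted p under 0.05. Over 14 other settings Thrsp, Pc, Pxmp2 and Mtarc1 passed in 11 each, Car5b and Slc25a10 in 9 each, Gpd1 in 7, Dapl1 in 5 and Elovl6 in 5 of 13. This test does not address the parous pair alone, and whether the differences of Thrsp, Pc or Elovl6 are smaller in parous than in virgin glands could not be tested with 1 array per group.

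Start-site sequences were read for the genes at least 1.5-fold higher with MNU in both parity states, since these genes read higher together. Of 7 such genes 6 have a window of 250 bases before to 50 after the start in the RefSeq promoter table of build GRCr8. The letters CCAAT, the core of the site of the factor NF-Y, were searched on both strands (ATTGG on the other), and 5 of the 6 windows held them, all but that of Car5b. The same letters occurred in 37.5% of 33469 windows and in 38.5% of the 4808 measured genes that have one. Among measured fatty acid synthesis genes 6 of 7 windows held them, all but Me1, and among all genes at least 1.5-fold higher or lower in the parous pair 8 of 15 and 14 of 32. Windows of 4 of these genes follow, 5′ to 3′ on the strand of the gene, with CCAAT or ATTGG in capitals.
Thrsp (chr1:161138915-161139214, minus strand): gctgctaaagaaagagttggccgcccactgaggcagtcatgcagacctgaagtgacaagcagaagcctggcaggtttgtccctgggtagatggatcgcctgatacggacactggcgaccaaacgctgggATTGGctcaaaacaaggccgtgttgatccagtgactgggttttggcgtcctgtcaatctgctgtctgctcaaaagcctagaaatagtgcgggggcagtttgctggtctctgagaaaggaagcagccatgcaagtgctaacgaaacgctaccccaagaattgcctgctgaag
Pxmp2 (chr12:52053701-52054000, plus strand): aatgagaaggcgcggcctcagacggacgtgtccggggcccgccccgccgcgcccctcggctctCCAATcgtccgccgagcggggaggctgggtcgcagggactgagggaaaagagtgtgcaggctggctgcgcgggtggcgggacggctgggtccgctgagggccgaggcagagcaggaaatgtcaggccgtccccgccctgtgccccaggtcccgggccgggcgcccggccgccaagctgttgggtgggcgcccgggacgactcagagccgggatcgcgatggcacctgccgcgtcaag
Mtarc1 (chr13:98894004-98894303, minus strand): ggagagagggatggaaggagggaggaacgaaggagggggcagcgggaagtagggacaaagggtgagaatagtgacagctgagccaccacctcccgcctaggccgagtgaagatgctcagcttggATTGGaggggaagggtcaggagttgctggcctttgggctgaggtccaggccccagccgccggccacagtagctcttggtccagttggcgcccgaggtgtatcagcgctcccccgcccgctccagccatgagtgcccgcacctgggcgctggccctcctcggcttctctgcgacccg
Slc25a10 (chr10:106264146-106264445, plus strand): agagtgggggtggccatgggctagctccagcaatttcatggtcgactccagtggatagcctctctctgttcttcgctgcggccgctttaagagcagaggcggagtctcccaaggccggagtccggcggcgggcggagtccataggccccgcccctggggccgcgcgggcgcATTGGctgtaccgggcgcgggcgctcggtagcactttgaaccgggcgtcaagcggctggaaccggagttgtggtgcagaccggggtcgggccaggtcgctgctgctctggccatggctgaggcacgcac
The match begins 121 bases before the start in Thrsp, 187 in Pxmp2, 126 in Mtarc1 and 79 in Slc25a10. The E-box CACGTG and the sterol element TCACNCCAC, searched on both strands in the same windows, were found in 0 of the 6; they occurred in 6.42% and 1.12% of all windows. The Sp1 box GGGCGG, searched likewise, was in the same 5 of 6 windows as CCAAT, in 33.1% of all windows and in 62.9% of those of measured genes. The direct repeat of AGGTCA with 1 base between was in 0 of the 6. A match of letters is a description and not a bound site.

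Lists next to fatty acid synthesis showed smaller differences that mostly lay above 0, and none of their members was at least 1.5-fold higher. Of 6 measured genes of triglyceride synthesis and storage 5 lay above 0, with a median of 0.09: Gpd1, then Dgat2, an acyltransferase of the last step of triglyceride synthesis, at 0.20, with Plin2, a lipid droplet coat protein, lowest at -0.15. Among 8 adipocyte regulators and hormones the median was 0.18. Slc2a4, the insulin-dependent glucose transporter, stood at 0.39, and Pparg at 0.35 in its brightest and 0.35 in its other feature. Nnat, neuronatin, an imprinted gene active in fat cells, went the other way: it read 586 units without and 384 with MNU, a difference of -0.61, and -1.23 in virgin glands (mean of both pairs -0.92 ± 0.14, limma adjusted p = 0.0212, under 0.05 in 10 of 14 other settings).

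In the supply of NADPH and glycolysis 10 of 11 measured genes lay above 0, with a median of 0.16 and a highest value of 0.27 for Pfkl, a phosphofructokinase. For 10 genes of sterol synthesis the median was 0.13, with Fdps, farnesyl diphosphate synthase, at 0.22. Insig1, at the floor in untreated parous glands and 221 units with MNU, has only a bound, and its deposited intensities were 182 and 183 units. For 13 genes of fatty acid oxidation it was 0.13, with Decr1 highest and Cpt1a, the gate of fatty acid entry into mitochondria, lowest at -0.40. For 14 genes of oxidative phosphorylation it was 0.10, with Atp5mc3, a subunit of ATP synthase, at 0.39 and Cox4i1, of cytochrome oxidase, at 0.39. In limma none of the 10, 12 and 12 tested members of the sterol, oxidation and oxidative phosphorylation lists passed. Summed normalized levels were higher too, from 9160.5 to 11118 units for 6 triglyceride genes, with 0 markers at the floor. Without Gpd1, which read 3181 and 4732.5 units, the other 5 summed to 5979 and 6386. The sum of 8 adipocyte genes went from 6688 to 7809, also with 0 at the floor. Without Adipor2, which read 2370 and 2914 units, the other 7 summed to 4317 and 4895. The part of these sums in the result was not tested.

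The gene with the largest difference was Magee1, a member of the melanoma antigen family. Its brightest feature was at the floor of 177.8 units on the 3 other arrays and read 883 units with MNU in parous glands, at least 4.97-fold higher; the deposited intensities were 179 and 692 units. The other feature of Magee1 read 157 units without and 122 units with MNU as deposited, both at the floor after normalization, and so showed no difference. Agtr1b, an angiotensin II receptor, and Wwtr1, the transcriptional coactivator TAZ, were likewise at the floor in untreated parous glands and on both virgin arrays, and were at least 1.78-fold and 1.69-fold higher with MNU. Magee1, Agtr1b and Wwtr1 passed the filter of 216.1 units only through the parous MNU array. A high value on that array alone was therefore built into their selection. Among the other higher genes, Alas2, the first enzyme of haem synthesis in red cell precursors, differed by 0.66, and Tmem14c, a mitochondrial protein needed for haem synthesis, by 0.61. Efna2, an ephrin ligand, differed by 0.67 and by 0.22 in its other feature. Dapl1 differed by 0.65, Gkn2, a gastrokine, by 0.62, Olfm3 by 0.62 and Oxt, the gene of oxytocin, the hormone of milk ejection, by 0.60. In virgin glands Dapl1 differed by 0.59 and the others by -0.12 to 0.21.

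Cldn7, a claudin of epithelial tight junctions, was lowest in the parous gland with MNU. It read 2483 units without and 999 with MNU, 2.49-fold lower with a difference of -1.31, and 1612 and 1453 units in virgin glands. Deposited intensities were 2710 and 775 units in the parous pair. The parous MNU array was therefore the lowest of the 4 for Cldn7. Of 11 measured junction genes 1, Cldn7 itself, was at least 1.5-fold lower. In all, 4 lay above and 7 below 0 with a median of -0.11, which stayed below that of all genes in 15 of 15 other settings. Gjb1, a connexin, stood at -0.34, Ocln, occludin, at -0.26 and Gjb2, another connexin, at -0.22. Cldn3 stood at 0.02, and Cdh1, E-cadherin, and Jup, plakoglobin, at 0.39 and 0.40.

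Of the 8 measured luminal genes 1 was at least 1.5-fold lower, Krt19, a simple epithelial keratin, at -0.59 in parous and -0.48 in virgin glands. Epcam stood at 0.02 and Cd24, a surface protein of epithelium, at 0.07. Sdc1, the heparan sulphate proteoglycan syndecan-1, which epithelium and plasma cells carry, differed by -0.66. Summed levels went from 15374 to 14225 units for 8 luminal markers and from 14595 to 13161 for 8 basal and myoepithelial markers, with 0 markers at the floor. Without Krt19 the other 7 luminal markers summed to 11034 and 11346 units, and without Tagln, an actin-binding protein that read 8110 and 6680.0 units, the other 7 basal markers summed to 6485 and 6481. The part of these sums in the Cldn7 difference was not tested.

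Bst2, tetherin, an interferon-induced membrane protein that holds enveloped virus particles at the cell surface, was next lowest. Bst2 read 1611 units without and 748 with MNU in parous glands, a difference of -1.11, and 1170 units in untreated virgin glands, with a blank on the virgin MNU array. Of 14 measured interferon response genes 12 lay below 0, with a median of -0.15, but 1, Bst2 itself, was at least 1.5-fold lower. Usp18, an inhibitor of interferon signalling, stood at -0.31, Gbp2, a guanylate-binding protein, at -0.27 and Psmb8, an immunoproteasome subunit, at -0.24, while Oasl stood at 0.15. In virgin glands 6 of the measured genes lay above and 6 below 0. Relative to all genes the parous median stayed below 0 in 15 of 15 other settings. Sp100, a nuclear body protein that interferon induces, differed by -0.70, but by 0.093 in its other feature.

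The promoter of Bst2 holds overlapping copies of the interferon-stimulated response element, searched on both strands as GAAA, any 2 bases and GAAA. That element occurred in 8 of 12 measured interferon genes with a window, in 2.91% of measured genes with one and in 3.92% of all 33469 windows. The window of Bst2 is shown with the element in capitals, its copies starting 131 and 125 bases before the start.
Bst2 (chr16:18254918-18255217, minus strand): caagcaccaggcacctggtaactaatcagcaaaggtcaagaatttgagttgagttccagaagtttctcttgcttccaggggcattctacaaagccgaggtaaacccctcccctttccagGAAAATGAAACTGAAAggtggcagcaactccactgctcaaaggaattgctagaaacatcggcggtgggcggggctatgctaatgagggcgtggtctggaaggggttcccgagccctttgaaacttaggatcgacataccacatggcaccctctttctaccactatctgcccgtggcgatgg
It was found in 1 of 32 windows of genes at least 1.5-fold lower and in 0 of 15 of genes at least 1.5-fold higher.

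Genes of macrophages had the lowest median of the lists with at least 5 measured members. Of 11 measured, 9 lay below 0 (7 of 11 in virgin glands), with a median of -0.28 (-0.18 in virgin glands). In the parous pair 1 was at least 1.5-fold lower. Fcgr2b, the inhibitory receptor for immunoglobulin G, read 600.3 units without and 382 with MNU, a difference of -0.65. Mmp12, macrophage elastase, differed by -0.55 and by -0.39 in its other feature. Trem2, a lipid-sensing receptor of macrophages, stood at -0.36, Gpnmb, a glycoprotein of lipid-laden macrophages, at -0.36 and Cd14, the lipopolysaccharide co-receptor, at -0.32, while Cd163 and Mrc1, scavenger receptors of resident macrophages, stood at -0.02 and -0.03. The summed level of the 11 markers went from 19694 to 17108 units, with none at the floor. Without a filter on dim genes the median was -0.03. Among other immune lists, 10 genes of T and cytotoxic cells had a median of -0.06, and their summed level was 3954 and 4026 units. Jchain, of plasma cells, differed by -0.29. Il1rl1, the receptor of interleukin-33, differed by -0.77 at a low level of 359 and 210.0 units.

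Milk genes mostly read lower in the parous gland with MNU, which was also 3 weeks further from lactation. Of 8 measured genes 7 lay below 0 and 2 were at least 1.5-fold lower, with a median of -0.16. Spp1, osteopontin, which macrophages also make, read 1185 units without and 627 with MNU, a difference of -0.92. Wap, whey acidic protein, read 6783 and 4359 units, a difference of -0.64, and Csn1s2a, an alpha-S2 casein, 11506 and 7960 units, a difference of -0.53. Both sizes depended on the processing. Over 15 other settings the difference ran from -1.24 to -0.41 for Wap and from -1.17 to -0.12 for Csn1s2a. In virgin glands Wap read 1674 and 2262 units and Csn1s2a 787 and 2188 units, so the order of the arrays was opposite there. Both parous arrays nevertheless stayed above both virgin arrays for both genes. Xdh, a coat protein of milk fat globules, differed by -0.23, Mfge8 by -0.05 and Muc1 by -0.02. Csn2 and Glycam1 were blank on both parous arrays.

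Immediate early genes, transcription factors and regulators induced within minutes of a stimulus, mostly read lower: 10 of 14 measured lay below 0, with a median of -0.25. Atf3, a stress-induced factor, read 427 units without and 265 with MNU, a difference of -0.68. Fosl2 stood at -0.45, Ccn2, a matrix-associated growth regulator, at -0.43, Jun at -0.42, Zfp36, which destabilises cytokine messages, at -0.33 and Junb at -0.31, while Myc stood at 0.32. In virgin glands 13 of 14 lay below 0 with a median of -0.38. Of the 14, limma called 1 over both pairs, Ccn2, with a mean of -0.84 ± 0.16 (limma adjusted p = 0.0473), and it passed in 5 of 14 other settings.

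The remaining genes at least 1.5-fold lower belonged to many functions. Kif3b, a motor subunit of kinesin-2 in cilia and vesicle transport, read 386 units without and 186 with MNU, a difference of -1.06, and 196 and 182 units in virgin glands. The untreated parous array thus stood above the other 3 for Kif3b, and its partner Kif3a differed by -0.25. Anp32a, a nuclear inhibitor of protein phosphatase 2A, also read highest on the untreated parous array, with 363 units there, 199.9 with MNU and a difference of -0.86, but its virgin arrays, at 257 and 281 units, lay between them. Rab5c, a GTPase of early endosomes, has 3 features, which differed by -0.77, -0.75 and -0.34. Nfix, a nuclear factor I protein, differed by -0.75 and by -0.61 in virgin glands (mean -0.68 ± 0.11, limma adjusted p = 0.0265, under 0.05 in 9 of 14 other settings). Tsc22d4 differed by -0.74 and Carmn, a long non-coding RNA of smooth muscle cells, by -0.71, and limma called both over the 2 pairs (adjusted p = 0.0397 each, under 0.05 in 6 of 14 and 6 of 13 other settings). Arl6ip5 differed by -0.74 and by -0.31 in its other feature. For Tenm4, a teneurin, at -0.80, and Bbx, an HMG box protein, at -0.72, the next feature differed by 0.16 and 0.090.

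Proliferation genes showed no common direction. Of 17 measured cell cycle and replication genes 7 lay above and 9 below 0, with a median of -0.03, and 0 were at least 1.5-fold different. Cdk1, the mitotic kinase, read 383 units without and 375 with MNU. Mki67, the gene of the Ki-67 antigen, stood at -0.12, Ube2c, which ubiquitinates cyclins at the end of mitosis, at -0.21 and Mcm6, of the replicative helicase, at 0.46. In virgin glands 15 measured members lay above 0 and 2 below, with a median of 0.52; whether the parity states differ was not testable.

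The median differences of p53 and repair genes also lay close to 0. Of 14 measured p53 genes 8 lay above and 6 below 0, with a median of 0.07. Mdm2, the ubiquitin ligase of p53, was at the floor without MNU and at 227 units with it, so it has only a bound. Its deposited intensities were 178 and 187 units. Phlda3, an inhibitor of Akt, stood at 0.33, Cdkn1a, the cyclin kinase inhibitor p21, at 0.08 and Ccng1, cyclin G1, at -0.29. In repair, 7 of 14 measured genes lay above and 7 below 0, with a median of -0.01. Mgmt read 616 units without and 622 with MNU, a difference of 0.01, and Pms2, of mismatch repair, stood at -0.32 and Lig1, DNA ligase 1, at 0.20. Members of both lists that were at least 1.5-fold different numbered 0. Pms1, a mismatch repair gene in neither list, read 308 and 204 units, a difference of -0.60, and -0.54 in virgin glands, while its other kept feature differed by 0.49 in the parous pair. Over both pairs Pms1 fell by a mean of 0.57 ± 0.11 (limma adjusted p = 0.0473, under 0.05 in 5 of 13 other settings).

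The other lists had medians from -0.14 to 0.17 among those with at least 5 measured members. Fibrillar matrix and fibroblast genes were at the lower end, with Col5a1, a chain of type V collagen, at -0.43 and Pdgfra, a receptor of fibroblasts, at -0.29. Genes of matrix proteases and involution were at the upper end, with Ctsl and Ctsd, lysosomal cathepsins, at 0.39 and 0.33 and Mmp3, stromelysin, at -0.37. Skeletal muscle genes had a median of 0.16, with Myl11 highest at 0.54 but at 0.04 in its other feature. Among heat shock genes Hsp90aa1 stood at -0.38 and Cryab at 0.42. In the hormone and growth factor list 12 genes were measured, and Prlr, the prolactin receptor, stood at 0.01, Stat5a, its transcription factor, at -0.14, and Tgfb3 and Igfbp6 at 0.28 and 0.29. Esr1 and Pgr, the receptors of oestrogen and progesterone, did not pass the filter. Relative to all genes, 18 of the 35 medians kept their sign in 15 of 15 other settings; the other 17, among them cell cycle, p53, repair, luminal, basal, T cell, lysosome, endothelium and hormone genes, did not and have no direction here. Without a filter on dim genes several medians came closer to 0: -0.14 for immediate early, -0.10 for milk, -0.07 for interferon and 0.02 for matrix protease genes.

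**Figure D3:**
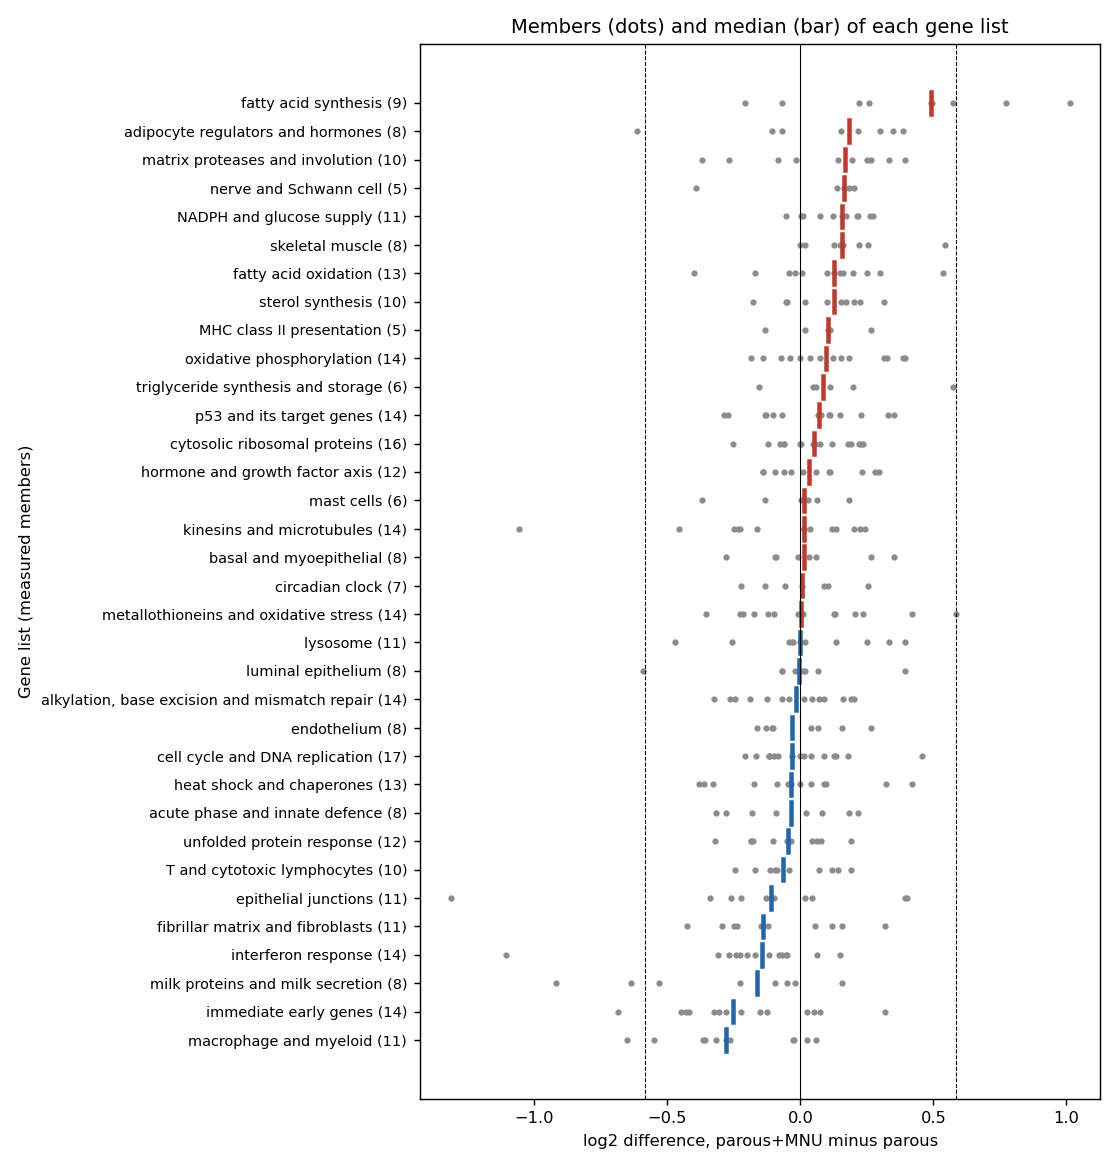
For each gene list with at least 5 measured members (number in brackets), dots show the log2 difference, parous with MNU minus parous, of each measured member and a bar shows their median; the solid line is 0 and dashed lines mark 1.5-fold. The fatty acid synthesis median of 0.49 stands highest and the macrophage median of -0.28 lowest, and most members lie inside the dashed lines.

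Set against the virgin pair, which shares no array with the parous pair, 10 genes reached 1.5-fold in both with the same sign and 0 with opposite signs. Over all genes of the virgin pair 50.9% lay above 0 and 48.8% below. At least 1.5-fold higher were 1.36% of them, and 0.945% were lower. Of the 16 genes higher in parous glands, 11 lay above 0 in virgin glands, 2 below and 3 at the floor, and 7 were at least 1.5-fold higher there. Of the 43 lower genes, 38 had a virgin difference: 30 lay below 0, 8 above, and 3 were at least 1.5-fold lower there. Those 7 were Thrsp, Pc, Pxmp2, Mtarc1, Slc25a10, Dapl1 and Car5b, and the 3 were Nnat, Nfix and Tenm4.

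**Figure D4:**
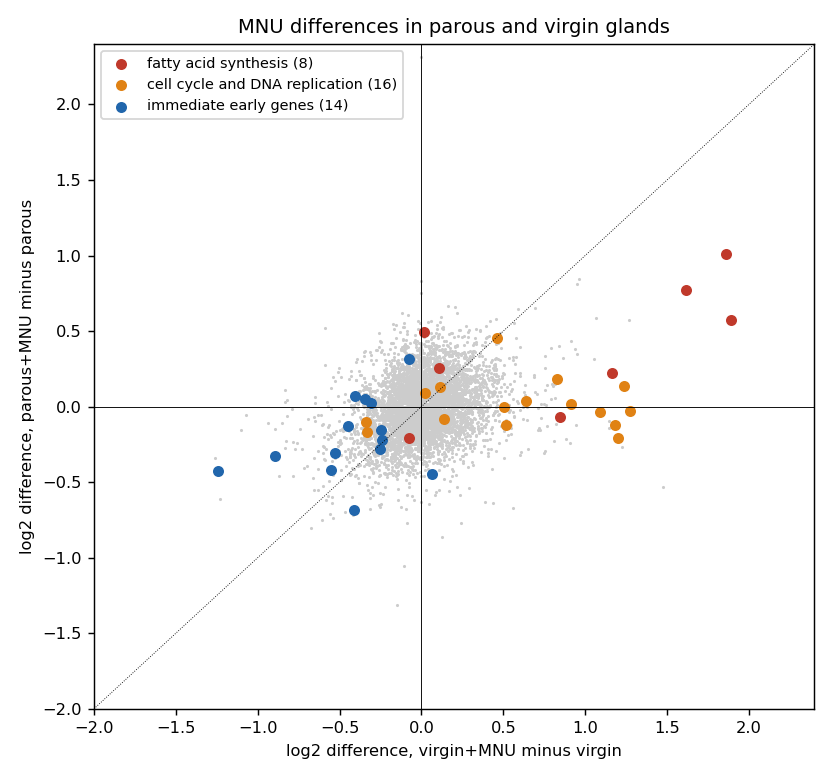
Log2 differences with MNU in virgin glands (x axis) and in parous glands (y axis), with all genes in grey, 3 lists in colour and equality dotted. Thrsp (1.86 and 1.01) lies right of and above 0, while Scd2 (0.84 and -0.07) and Insig2 (-0.08 and -0.21) of the same list do not lie above it. Cell cycle genes such as Cdk1 (1.27 and -0.03) spread along the x axis near a parous difference of 0, and most immediate early genes lie below 0 in both.

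Features of the same gene differed from each other in the parous pair. Over 757 genes with at least 2 kept features on both arrays, the differences of the brightest and the next feature correlated with r = 0.0717 and rho = 0.0523, as a description across genes that share both arrays, and 385 of them had the same sign (50.9%). Of the 59 genes at least 1.5-fold different, 12 had another kept feature with a value on both parous arrays: in 7 its sign matched, and in 1, Rab5c, it also reached 1.5-fold. Thrsp, Pc, Mtarc1, Slc25a10, Cldn7, Bst2, Kif3b and Spp1 have no second kept feature, and those of Pxmp2 and Sdc1 were blank on the untreated parous array.

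**Figure D5:**
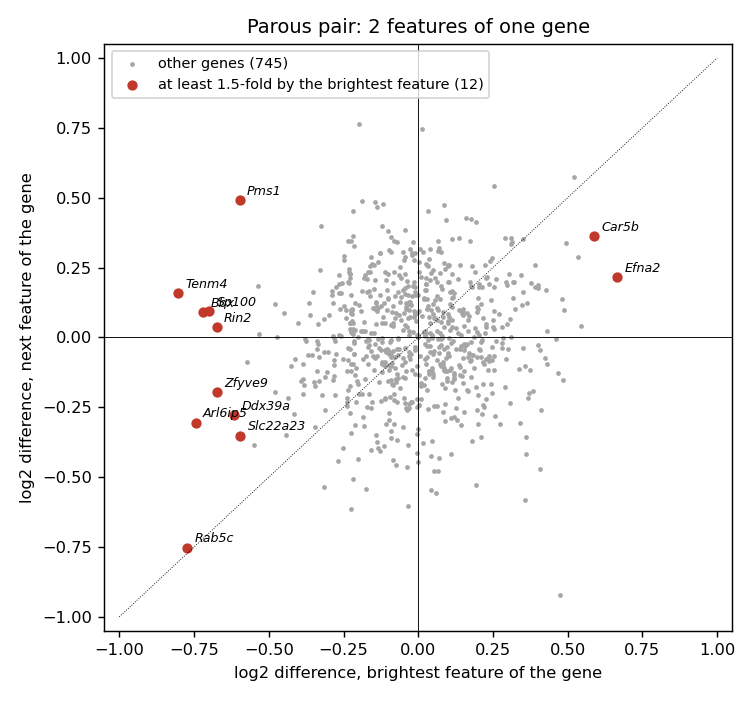
Log2 difference, parous with MNU minus parous, of the brightest (x axis) and the next (y axis) kept feature of 757 genes; the dotted line is equality. Grey dots spread round 0 with r = 0.0717, and of the 12 red genes Rab5c alone lies near the line beyond 1.5-fold in both.

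Blanks removed bright genes from the comparison. The MNU array lacked a value for 596 features measured on the untreated parous array, and the reverse held for 222. Of the 596, 171 were among the brightest 5% of the untreated array (28.7%). Of the 222, 42 were among the brightest 5% of the MNU array (18.9%). The brightest named genes blank on the MNU array alone were Rpl19, a ribosomal protein, at 22579 units, Col1a2, a collagen chain, at 21028, Eef1b2, an elongation factor, at 20683, B2m, beta-2-microglobulin, at 18012, and Rapsn at 16844 units in untreated parous glands. In the other direction Timp2, an inhibitor of matrix proteases, read 7921 units with MNU, Atp5po 7638, Clca1 7270, Skp1 7204 and Clu, clusterin, 6564, and all 5 were blank without MNU. Igf1, at 14475 units, and Areg, an EGF receptor ligand, at 1175 units, were measured in untreated parous glands and blank with MNU. What a blank means is not given in the sources used here, so no direction was read from it.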

How the data were processed

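The deposited table holds 1 intensity per feature and array, on a linear scale, made by the authors; the labels name total RNA of whole mammary gland. Platform, image analysis, background correction and the meaning of blanks were not stated in the sources used here. Scaling was needed because deposited medians differed by up to 1.33 times. Features were named through the platform annotation, 12750 of 20500 with 1 symbol, 12720 of these matched to GRCr8. Arrays were quantile normalized on features with a value on all 4, floored at the pooled 40th percentile (177.8 units), kept where at least 1 array exceeded the 50th (216.1 units), and put on a log2 scale by this work. Each gene took its brightest kept feature: 6187 genes, 395 of them blank on a parous array. Counts at 1.5-fold and 2-fold have no test. limma 3.58.1 in R 4.3.3 (lmFit and eBayes, Benjamini-Hochberg at 0.05) tested MNU in an additive model with parity over 4 arrays, with 1 residual degree of freedom, and was tested on simulated data. Python 3.11.15 with numpy 2.4.6, pandas 2.3.3 and statsmodels 0.14.6 did the rest. The number of arrays limits the precision.

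Named genes were those at least 2-fold different, the 15 largest differences each way above the floor, at most 4 members from each list, by absolute difference, the 5 brightest genes blank on 1 parous array each way, and a fixed list. Genes beside these (Agtr1b, Wwtr1, Acss2, Mlxipl, Scd2, Insig2, Cldn3, Ocln, Gjb2, Epcam, Cd24, Muc1, Mfge8, Oasl, Cd163, Mrc1, Junb, Zfp36, Myc, Glycam1, Pms1 and Sdc1) were chosen after their values were seen. Members and lists were chosen with earlier results of these data known. Alternatives changed the scaling, floor, filter, choice of feature, background, position on the array and limma settings.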

Additional observations from a re-analysis of the deposited data

Results flagged for a closer look

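Of 153 named genes compared in both pairs, 4 differed at least 1.5-fold in 1 pair and in the opposite direction, by more than the robust SD of all genes (0.195 parous, 0.190 virgin), in the other. The log2 differences with MNU were -0.53 in parous and 1.47 in virgin glands for Csn1s2a, -0.64 and 0.43 for Wap, -0.21 and 1.20 for Ube2c, and -0.77 and 0.24 for Il1rl1. Each pair has 1 array a side, so the difference between parity states was not tested.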

How the results depend on the processing

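The count of 59 genes at least 1.5-fold different in the parous pair lay between 46 and 81 in 12 of 15 other settings, and was 1140 as deposited, 96 with median centring and 194 after subtraction of a background. The count of 5 genes at 2-fold lay between 4 and 7 in 11 settings, and was 44 as deposited, 8 without a floor, 13 after background subtraction and 3 under the strict filter. The limma count of 24 was 70 as deposited, 74 with centring, 114 with quantile normalization over all values, 11 without a floor, 11 with a floor at the 20th percentile, 0 without a filter (830 at an unadjusted p under 0.05), 110 with the strict filter, 5 with the mean of the features of a gene, 5 with each feature on its own, 12 with background subtracted, 6 with the local median removed and 6 with robust limma. With other features, Sp100 read 0.093, Bbx 0.090 and Tenm4 0.16. Of the other values, 2179 of single genes and 486 of list medians moved by less than the spread over genes, and 250 and 39 moved further. Taking the brightest feature with a value on both parous arrays, which gave 60 genes, was chosen after seeing the data. The causes were not tested. No paired analysis was possible because each group has 1 array. Leaving out an array leaves no residual degree of freedom. Signal over background cannot be judged, since no background values were used here.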
